A study of Mus musculus with 8 samples.

Results

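The 10 genes described here are the Gadd45 family and a set of p53 target genes with p53 itself: Gadd45a, Gadd45b, Gadd45g, Cdkn1a, Mdm2, Ccng1, Trp53, Btg1, Btg2 and Bax. They were chosen by the measured level of Gadd45g, which in mice with neuromyelitis optica (NMO) was below the control level in CD11c- microglia, so that contrast is described for all 10 without a test, as is every contrast of Gadd45g. All 10 were found by symbol among the 41388 gene identifiers, and all 10 passed the filter on low counts, as 12002 genes did in all. NMO is an autoimmune inflammatory disease of the optic nerve and spinal cord. The series holds sorted microglia, the brain's own macrophages, of C57BL/6 mice, in 3 groups. These are CD11c+ cells of adult NMO mice (n = 2), CD11c- cells of adult NMO mice (n = 3) and cells of control mice (n = 3). Cells were isolated by CD11b, CD45 and CD11c. The controls are given as CD11c negative in one label and as total microglia of unmanipulated mice in their titles, so it is not known whether CD11c+ cells were removed from them. The sources used here do not give how NMO was induced, the sex and exact age of the mice or any pooling of animals. There is no CD11c+ control group, so subset and disease change together between NMO CD11c+ and control microglia, and any difference in handling between NMO and control libraries cannot be told apart from disease.

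p53, the product of Trp53, is a transcription factor that is stabilised by DNA damage and other stress and then turns on genes that halt the cell cycle, repair DNA or start cell death. Its level is held down by Mdm2, a ubiquitin ligase whose gene is itself a p53 target. The GADD45 proteins are small stress-induced proteins that bind PCNA and cyclin-dependent kinase 1 and activate the kinase MAP3K4 upstream of p38 and JNK; in macrophages Gadd45b is also an NF-kB target. Several of these genes, Btg2, Gadd45b and Cdkn1a among them, can also be switched on rapidly by growth factor, inflammatory or handling signals that do not pass through p53.

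The libraries held 4943207 and 5914412 counts in NMO CD11c+ microglia, 6437516 to 6819662 in NMO CD11c- microglia and 7500815 to 9246061 in controls. The 9 microglial markers examined summed to 30653 to 31727 CPM (counts scaled to the TMM-normalised size of the library) in NMO CD11c+, 31184 to 38358 in NMO CD11c- and 37662 to 41127 in control libraries. The 10 neutrophil markers summed to 15.3 to 19.7 CPM in NMO CD11c+ libraries, with Ly6g at 0 counts, 2063 to 10660 CPM in NMO CD11c- libraries and 863 to 1771 CPM in controls. The level of 24 immediate-early and stress genes, none of them among the 10, given as their mean log2 CPM (the immediate-early score), was 6.97 and 9.48 in the NMO CD11c+ libraries, 6.68, 8.20 and 8.42 in the NMO CD11c- libraries and 9.63, 8.77 and 8.91 in controls. Itgax, which encodes CD11c and so checks the sort, was at 188 and 181 CPM in NMO CD11c+ libraries, at 35.5 to 41.3 in NMO CD11c- libraries and at 30.6, 32.1 and 31.0 in controls. In NMO CD11c+ replicate 1 the deviation of genes from their mean followed gene GC content (Spearman correlation over genes 0.59, which are not independent replicates, against -0.30 to -0.04 in the other libraries). No label ties a library to a mouse of its own, so a p-value here weighs a difference against the spread of these samples alone, which may be technical. The part of neutrophil RNA, GC content and the immediate-early response in the results below was not tested beyond the values given beside them. In bulk RNA, fewer cells that make a transcript and less transcript per cell cannot be told apart.

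Levels were compared between genes per kilobase of exon. In control microglia Btg2 was the highest at 478 ± 120 CPM per kilobase (SD, n = 3 here and below for controls), followed by Btg1 at 82.1 ± 35.9. Gadd45g came next at 48.7 ± 7.22. Its highest control value, 56.5, was just below the lowest of Btg1, 59.3, though the means differed by less than the SD of Btg1. Below them stood Bax at 25.9 ± 3.61, Mdm2 at 23.6 ± 1.65, Trp53 at 23.2 ± 1.37 and Gadd45b at 19.3 ± 2.62 CPM per kilobase. Neighbours in that stretch differed by less than their spread, apart from Trp53 and Gadd45b, whose means were further apart than either SD. Ccng1 stood at 17.1 ± 0.685, Cdkn1a at 9.42 ± 2.16 and Gadd45a at 3.42 ± 1.14. In NMO CD11c+ microglia Btg2 and Btg1 again led, at 444 ± 424 and 91.7 ± 74.8 CPM per kilobase (SD, n = 2). Bax stood at 49.4 ± 23.5, Cdkn1a at 27.5 ± 15.9 and Gadd45g at 25.4 ± 2.71. Cdkn1a overlapped both of the others, while both Bax values were above both Gadd45g values. In NMO CD11c- microglia (n = 3) Gadd45g was at 22.3 ± 3.60 CPM per kilobase, next to Mdm2 at 22.0 ± 1.88 and Trp53 at 21.0 ± 0.840. Thus Gadd45g stood well above Mdm2 and Trp53 per kilobase in controls and level with them in NMO CD11c- cells.

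**Figure D1:**
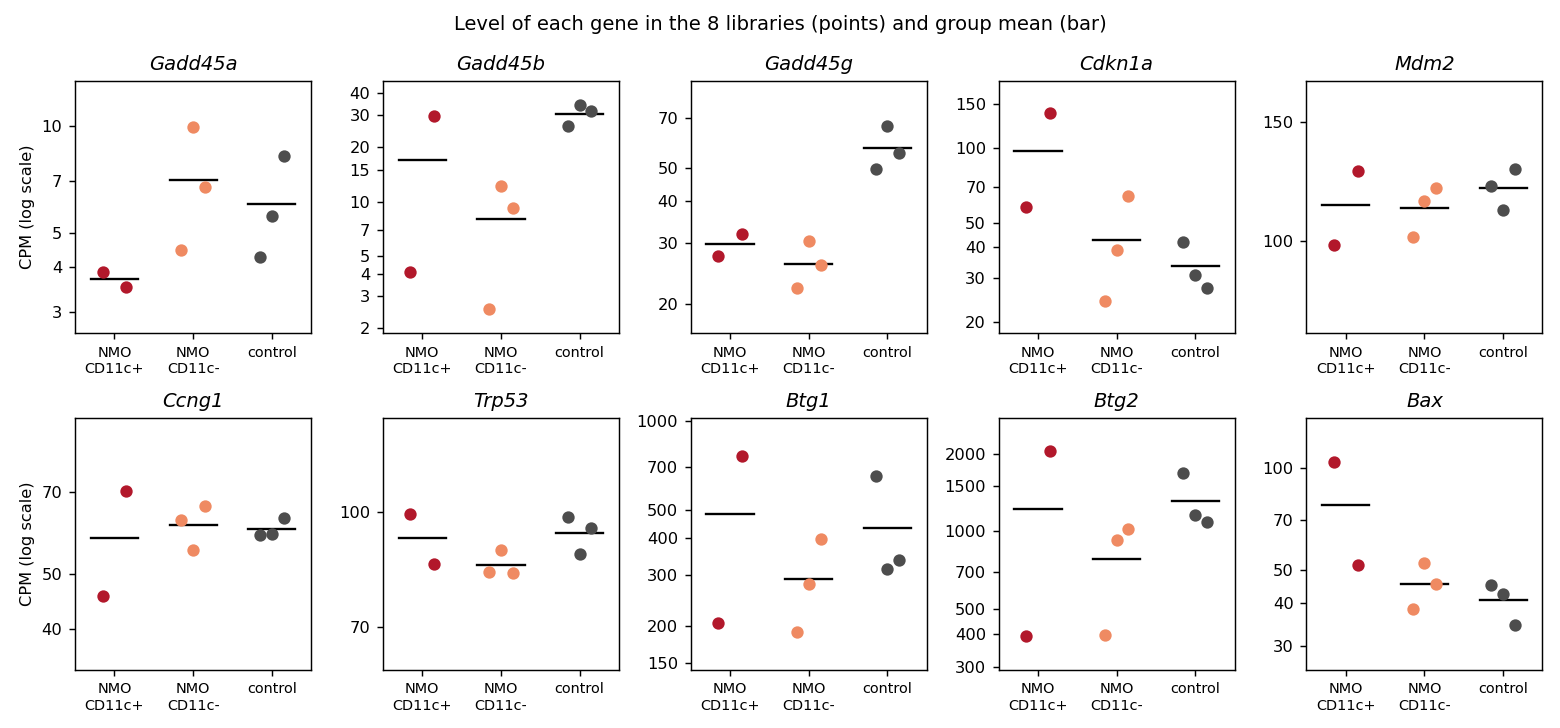
Level of each of the 10 genes in CPM (log axis, own range per panel) in NMO CD11c+ (n = 2), NMO CD11c- (n = 3) and control (n = 3) libraries; points are libraries and bars are group means. Gadd45g lies between 22.1 and 32.1 CPM in the 5 NMO libraries and between 49.7 and 66.3 in controls, whereas Btg2, Btg1 and Gadd45b differ several-fold between the 2 NMO CD11c+ libraries.

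The promoters of 4 of these genes are shown. Gadd45g was low in both NMO groups, Gadd45b and Btg2 varied with the immediate-early score, and Cdkn1a was higher in NMO CD11c+ cells than in controls. These patterns overlap. Gadd45b and Btg2 were also below every control in the NMO CD11c- libraries. Deviations of Cdkn1a from its group means followed those of the score too (r = 0.94, not tested). Each sequence is the 250 bases before a transcription start, from RefSeq on GRCm38.p6, which is a patch of the build the reads were aligned to, read 5′ to 3′ on the gene's strand. Capitals mark the TATA box TATAAA, the E-box CACGTG, the cyclic AMP response element TGACGTCA and the p53 decamer consensus.
Gadd45g chr13:51846425-51846674 (+ strand): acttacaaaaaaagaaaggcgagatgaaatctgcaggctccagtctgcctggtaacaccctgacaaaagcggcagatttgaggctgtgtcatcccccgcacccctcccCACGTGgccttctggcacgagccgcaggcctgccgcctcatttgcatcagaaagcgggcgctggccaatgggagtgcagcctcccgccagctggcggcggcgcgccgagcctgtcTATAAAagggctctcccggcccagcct
Gadd45b chr10:80929841-80930090 (+ strand): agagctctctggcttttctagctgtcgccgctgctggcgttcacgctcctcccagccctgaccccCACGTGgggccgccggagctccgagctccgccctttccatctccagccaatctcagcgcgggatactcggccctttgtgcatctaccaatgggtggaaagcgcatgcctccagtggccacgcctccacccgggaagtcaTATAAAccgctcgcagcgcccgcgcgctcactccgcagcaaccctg
Btg2 chr1:134079156-134079405 (- strand): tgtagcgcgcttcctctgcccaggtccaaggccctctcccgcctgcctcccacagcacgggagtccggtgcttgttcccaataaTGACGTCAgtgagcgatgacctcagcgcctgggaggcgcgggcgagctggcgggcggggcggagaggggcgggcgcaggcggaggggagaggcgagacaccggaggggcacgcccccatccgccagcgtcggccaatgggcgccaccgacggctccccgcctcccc
Cdkn1a chr17:29090729-29090978 (+ strand): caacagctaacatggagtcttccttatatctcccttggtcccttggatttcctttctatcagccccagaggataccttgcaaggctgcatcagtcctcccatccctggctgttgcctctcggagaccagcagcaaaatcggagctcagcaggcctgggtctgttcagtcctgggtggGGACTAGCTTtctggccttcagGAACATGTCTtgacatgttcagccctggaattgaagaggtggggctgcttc

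Gadd45b and Gadd45g both held TATAAA and CACGTG in this window. Among the 10 genes TATAAA was in 4, also Btg1 and, on the other strand, Trp53. CACGTG was in 3, the third being Bax. TATAAA, searched on both strands, was in 12.4% and CACGTG in 6.02% of 32851 mouse promoter windows of the same length. TGACGTCA was found in the Btg2 window, from base -166 to -159 before the start, and in no other gene of the 10 (1.55% of all windows). Its core TGACG, searched on both strands, was in the Btg2 and Btg1 windows and in 17.8% of all. The Btg2 positions hold for the RefSeq start, which is upstream of the gene position given below. The bases checked just after that start were in no annotated Btg2 transcript, unlike those of the other genes shown. The Cdkn1a sequence is that of the upstream of its 2 annotated starts and held a pair of p53 decamers, from base -73 to -64 and from -51 to -42. The 10 bases directly after the second decamer, tgacatgttc, differ from the consensus at their first base only and so were not marked or counted. A pair spaced by at most 13 bases was in 0.0639% of all windows, and a single decamer was in 6 of the 10 genes (Gadd45a, Cdkn1a, Mdm2, Ccng1, Trp53 and Bax) and in 7.13% of all windows. The AP-1 motif TGANTCA (6.75% of windows) and the CArG box bound by serum response factor (1.47%) matched none of the 10. A match is a run of letters and does not show binding.

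The first question is how the Gadd45 family stood across the 3 groups. Gadd45g, a stress- and cytokine-induced growth arrest gene (ENSMUSG00000021453, chromosome 13 from 51846678 to 51848468, GRCm38), was at 27.6 and 32.1 CPM in NMO CD11c+ libraries, at 22.1, 30.6 and 25.9 in NMO CD11c- libraries and at 49.7, 66.3 and 55.3 in controls. Every NMO library lay below every control library, and the NMO groups overlapped. The fitted log2 fold change was -1.13 (SE 0.15) for NMO CD11c- against control and -0.94 (SE 0.17) for NMO CD11c+ against control. Between the NMO groups it was 0.19 (SE 0.18). These comparisons share libraries, and the first chose the gene, so no p is given for any of them. With the neutrophil score as a covariate, which nearly repeats the division into NMO CD11c+ and other libraries, the value was -1.39 for NMO CD11c- against control and -0.15 for NMO CD11c+ against control. Neutrophil markers summed to at most 19.7 CPM in NMO CD11c+ libraries and were highest in NMO CD11c- libraries, and their part in the Gadd45g values was not tested beyond this.

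Gadd45b, an anti-apoptotic family member induced by NF-kB and by TGF-beta (ENSMUSG00000015312, chromosome 10 from 80930073 to 80932204), was at 4.09 and 29.8 CPM in NMO CD11c+ libraries, at 2.54, 12.2 and 9.26 in NMO CD11c- libraries and at 26.2, 34.4 and 31.5 in controls. The NMO CD11c- libraries were all below the controls, while the NMO CD11c+ libraries were 7.29-fold apart and reached into the control range. The log2 fold change was -0.83 (SE 0.62, edgeR quasi-likelihood adjusted p = 0.401) for NMO CD11c+ against control and 1.11 (SE 0.66, adjusted p = 0.422) against NMO CD11c-, and -1.94 (SE 0.58) for NMO CD11c- against control. Against control it was -2.91 without NMO CD11c+ replicate 2 and -0.047 without replicate 1, in fits that leave 1 library in that group. Without replicate 2 it turned to -0.97 against NMO CD11c-. Gadd45a, the p53-induced member of the family (ENSMUSG00000036390, chromosome 6 from 67035096 to 67037457), was low throughout, with 19 and 20 counts in NMO CD11c+ libraries, 30, 66 and 46 in NMO CD11c- and 35, 52 and 63 in controls. In CPM it was at 3.88 and 3.52 in NMO CD11c+, 4.49 to 9.94 in NMO CD11c- and 4.28 to 8.24 in controls, so that the NMO CD11c+ libraries were the lowest. Its log2 fold change did not pass against NMO CD11c- (-0.93, SE 0.40, adjusted p = 0.313) or control (-0.70, SE 0.40, adjusted p = 0.277). Gadd45a thus had its lowest levels in NMO CD11c+ libraries, Gadd45g was low in both NMO groups, and Gadd45b varied most within a group.

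The second question is how p53 and the genes that hold it in check stood. Trp53 (ENSMUSG00000059552, chromosome 11 from 69580359 to 69591873) was at 99.5 and 85.1 CPM in NMO CD11c+ libraries, at 83.2, 88.8 and 82.7 in NMO CD11c- libraries and at 98.6, 87.7 and 95.2 in controls. The groups overlapped. Its log2 fold change for NMO CD11c+ was 0.12 against NMO CD11c- (95% interval -0.12 to 0.36) and -0.02 against control (-0.27 to 0.22). Mdm2, the ubiquitin ligase that targets p53 (ENSMUSG00000020184, chromosome 10 from 117688875 to 117710758), was at 98.9 and 127 CPM in NMO CD11c+ libraries, 101 to 119.9 in NMO CD11c- and 111 to 128 in controls. Its log2 fold change for NMO CD11c+ was 0.01 against NMO CD11c- (95% interval -0.28 to 0.31) and -0.08 against control (-0.38 to 0.21). Ccng1, cyclin G1, a p53 target whose product brings a phosphatase to Mdm2 (ENSMUSG00000020326, chromosome 11 from 40748552 to 40755311), was at 45.8 and 70.1 CPM in NMO CD11c+ libraries, 55.1 to 66.0 in NMO CD11c- and 58.6 to 62.9 in controls. The 2 NMO CD11c+ libraries lay below and above all the others. Its log2 fold change for NMO CD11c+ was -0.07 against NMO CD11c- (95% interval -0.44 to 0.29) and -0.05 against control (-0.41 to 0.32). None of these 3 passed in either comparison with NMO CD11c+ cells (adjusted p between 0.586 and 0.968), and the intervals leave out a 2-fold difference. Without NMO CD11c+ replicate 2, the log2 fold change of Ccng1 in the remaining NMO CD11c+ library was -0.42 against NMO CD11c- and -0.40 against control cells. Without replicate 1 it was 0.20 and 0.22. For NMO CD11c- against control the log2 fold changes were -0.14 for Trp53, -0.10 for Mdm2 and 0.02 for Ccng1 (SE 0.10, 0.12 and 0.14).

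The third question is how the effectors of cell cycle arrest and cell death stood. Cdkn1a, which encodes the cyclin-dependent kinase inhibitor p21 (ENSMUSG00000023067, chromosome 17 from 29090976 to 29100727), was at 57.8 and 138 CPM in NMO CD11c+ libraries, at 24.4, 39.0 and 64.2 in NMO CD11c- libraries and at 42.1, 31.0 and 27.3 in controls. Both NMO CD11c+ libraries were above every control, and 1 of them lay within the range of the NMO CD11c- group. Cdkn1a was higher in NMO CD11c+ cells than in controls, at a log2 fold change of 1.55 (SE 0.40, 95% interval 0.66 to 2.44, adjusted p = 0.0374). Against NMO CD11c- the difference was 1.20 (SE 0.40, adjusted p = 0.22) and did not pass. The call against control was lost without NMO CD11c+ replicate 2 (log2 fold change 0.78, adjusted p = 0.166), and, with a fold change close to that with all libraries, without control replicate 1 (1.75, adjusted p = 0.0738), 2 (1.5, adjusted p = 0.118) or 3 (1.43, adjusted p = 0.13) and after GC correction (1.45, adjusted p = 0.0508). With the neutrophil covariate the difference was 0.03. With the immediate-early score as a covariate the difference from NMO CD11c- was 0.88 and passed (adjusted p = 0.0367), and NMO CD11c- stood above control by 1.04, against 0.35 without the covariate. The difference of NMO CD11c+ from control was then 1.92 (adjusted p = 7.13e-05). Without NMO CD11c+ replicate 1, which leaves 1 library in that group, it was 2.04.

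Bax, the pore-forming protein of the mitochondrial death pathway (ENSMUSG00000003873, chromosome 7 from 45461697 to 45466898), was at 104 and 51.6 CPM in NMO CD11c+ libraries, at 38.5, 52.4 and 45.6 in NMO CD11c- libraries and at 45.4, 42.5 and 34.4 in controls. The high value belongs to replicate 1, the library that follows GC content, and at 63.5% Bax has the highest transcript GC content of the 10 genes. It was higher in NMO CD11c+ cells than in controls (log2 fold change 0.93, SE 0.25, adjusted p = 0.0453), and not past the threshold against NMO CD11c- (0.77, SE 0.25, adjusted p = 0.219). The call against control was lost without NMO CD11c+ replicate 1 (log2 fold change 0.34, adjusted p = 0.312), with the immediate-early covariate (0.73, adjusted p = 0.0958), after GC correction (0.54, adjusted p = 0.0699) and with the neutrophil covariate (0.46). It was also lost, at nearly the same fold change, without any NMO CD11c- library (0.93, adjusted p 0.0524 to 0.0707), without any control library (0.82 to 1.01, adjusted p 0.0935 to 0.147), with scaling by library size alone (0.90, adjusted p = 0.0513) and with the 2 groups fitted on their own (0.92, adjusted p = 0.0965). Without NMO CD11c+ replicate 2, which leaves in that group only the library that follows GC content, the difference from NMO CD11c- was 1.19. Bax overlaps another coding gene model on its strand, Gm45808, and reads of the 2 may not have been separated.

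The fourth question is how the antiproliferative genes Btg1 and Btg2 stood, whose products link the CCR4-NOT deadenylase to messenger RNAs and slow growth. Btg2 (ENSMUSG00000020423, chromosome 1 from 134075170 to 134079120), both a p53 target and an immediate-early gene, was at 394 and 2040 CPM in NMO CD11c+ libraries, at 399, 923 and 1026 in NMO CD11c- libraries and at 1686, 1160 and 1084 in controls. The 2 NMO CD11c+ libraries were the lowest and the highest of the 8, and the NMO CD11c- libraries all lay below the controls. Btg1 (ENSMUSG00000036478, chromosome 10 from 96617006 to 96622809) was at 205 and 763 CPM in NMO CD11c+ libraries, at 192, 278 and 397 in NMO CD11c- libraries and at 651, 313 and 335 in controls. Neither passed: for NMO CD11c+ against NMO CD11c- the log2 fold change was 0.64 for Btg2 (SE 0.56, adjusted p = 0.574) and 0.74 for Btg1 (SE 0.50, adjusted p = 0.462), and against control it was -0.11 (SE 0.57, adjusted p = 0.92) and 0.16 (SE 0.50, adjusted p = 0.861). For NMO CD11c- against control it was -0.74 for Btg2 (SE 0.51) and -0.58 for Btg1 (SE 0.45). Without NMO CD11c+ replicate 2, the log2 fold change of Btg2 in the remaining NMO CD11c+ library was -1.74 against controls, and without replicate 1 it was 0.64. The annotation lists 2 pseudogenes named after Btg1 and 1 named after Trp53, whose reads may be split between copies.

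**Figure D2:**
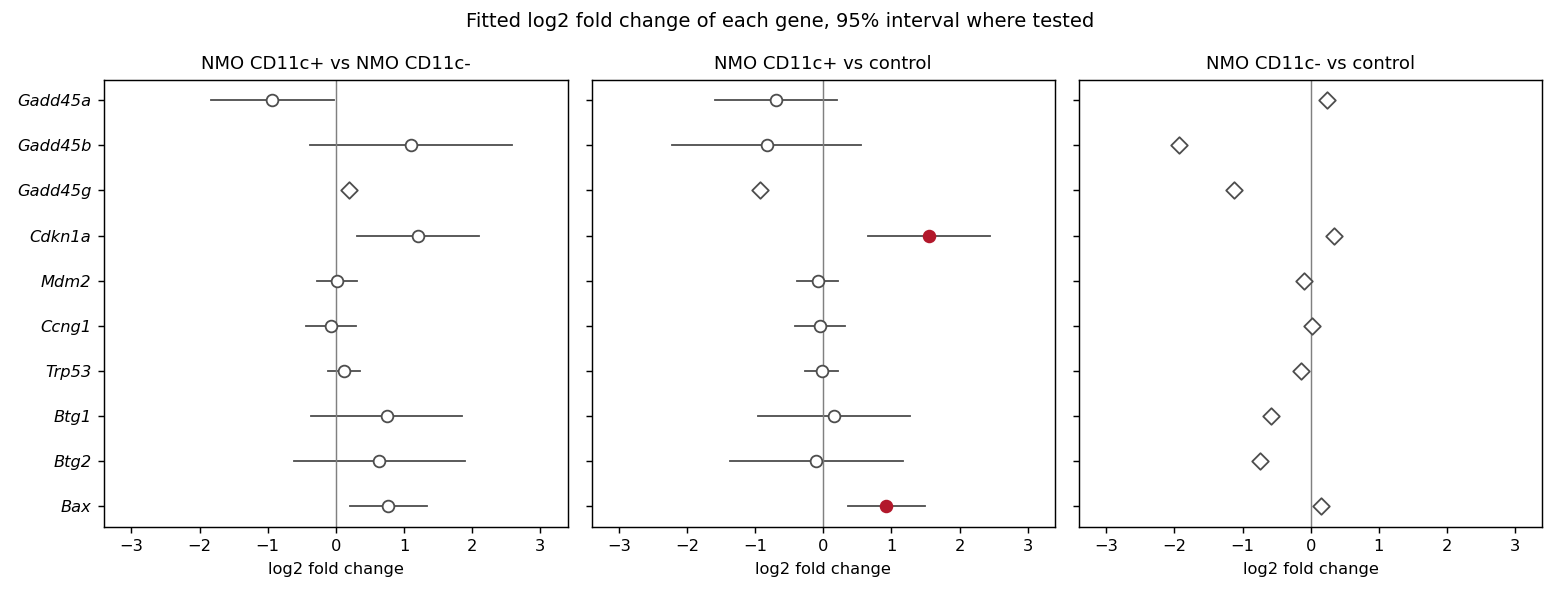
Fitted log2 fold change of each gene in the 3 comparisons (x axis, log2 scale). Circles are tested values with 95% intervals, filled where the adjusted p was under 0.05 (Cdkn1a at 1.55 and Bax at 0.93, NMO CD11c+ against control), and diamonds are values given without a test because they share the contrast or the gene that set the choice.

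Counted over the 10 genes, none was called between NMO CD11c+ and NMO CD11c- microglia by edgeR (0 by DESeq2), and 3 had an unadjusted p under 0.05, with Cdkn1a and Bax higher and Gadd45a lower. The share of all tested genes was 0.283% called and 15.4% at unadjusted p under 0.05. Between NMO CD11c+ and control microglia 3 of 10 were called, Cdkn1a and Bax higher and Gadd45g lower, where Gadd45g had been chosen with the same control libraries. The background was 10.2% of tested genes (6.85% higher, 3.36% lower), and the same 3 were those at unadjusted p under 0.05 (background 28.8%). Neither Cdkn1a nor Bax was called once any 1 control library was left out. The Gadd45g call lends no support, because these controls were used to choose it. Between NMO CD11c- and control microglia 1 of 10 was called, Gadd45g, which the choice fixes (background 3.72%, of which 0.717% lower). The 2 groups did not overlap for Gadd45a alone between the NMO groups (background 28.0%, of which 13.8% higher and 14.2% lower). They did not overlap for Gadd45a and Gadd45g (lower) and Cdkn1a and Bax (higher) between NMO CD11c+ and control (background 43.7%, of which 22.2% higher and 21.5% lower). They did not overlap for Gadd45b, Gadd45g and Btg2, all lower, between NMO CD11c- and control (background 33.8%, of which 17.6% higher and 16.1% lower). The counts of genes without overlap, 1, 4 and 3 of 10, are near or below these backgrounds or set by the choice. The median log2 fold change of the 10 was 0.41, -0.07 and -0.12 for NMO CD11c+ against NMO CD11c-, NMO CD11c+ against control and NMO CD11c- against control, beside 0.01, 0.01 and 0.00 over all tested genes.

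Several of the genes moved between libraries with the immediate-early score. Btg2 followed it most closely over the 8 libraries (Pearson r = 0.98, exact permutation p = 0.000397, adjusted 0.00397 over the 10 genes; Spearman rho = 0.93, exact permutation p = 0.00223, adjusted 0.0223). Without the 2 libraries farthest from the median score, NMO CD11c+ replicate 1 and NMO CD11c- replicate 1, r was 0.93. The correlation of deviations from group means was 0.99, so the relation was as close within groups. Such within-group values, here and below, were not tested. They lean most on the 2 NMO CD11c+ libraries, which lie farthest apart in score within a group (6.97 and 9.48). Btg1 gave r = 0.91 (exact permutation p = 0.00466, adjusted 0.0155; rho = 0.90, exact permutation p = 0.00456, adjusted 0.0228), 0.87 without those libraries and 0.95 within groups. Gadd45b gave r = 0.93 (exact permutation p = 0.00203, adjusted 0.0102; rho = 0.74, exact permutation p = 0.0458, adjusted 0.115), 0.68 without those libraries and 0.91 within groups. Mdm2 gave r = 0.88 (exact permutation p = 0.00652, adjusted 0.0163; rho = 0.81, exact permutation p = 0.0218, adjusted 0.0726) over a narrow range of levels, 0.90 within groups and 0.51 without those 2 libraries, on which the relation across libraries rests. The correlation across all libraries did not pass for Gadd45a, Cdkn1a, Ccng1, Trp53 or Bax by either measure (adjusted permutation p from 0.336 to 0.899). For Cdkn1a it was 0.34 across all libraries but 0.94 within groups, and each NMO CD11c+ library stood above the library nearest to it in score. For Gadd45g, described without a test, r was 0.65 across all libraries and 0.41 within groups. With the score as a covariate the Btg2 difference between NMO CD11c+ and NMO CD11c- was -0.09 in place of 0.64, and that of Gadd45g between NMO CD11c- and control was -1.04 in place of -1.13.

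**Figure D3:**
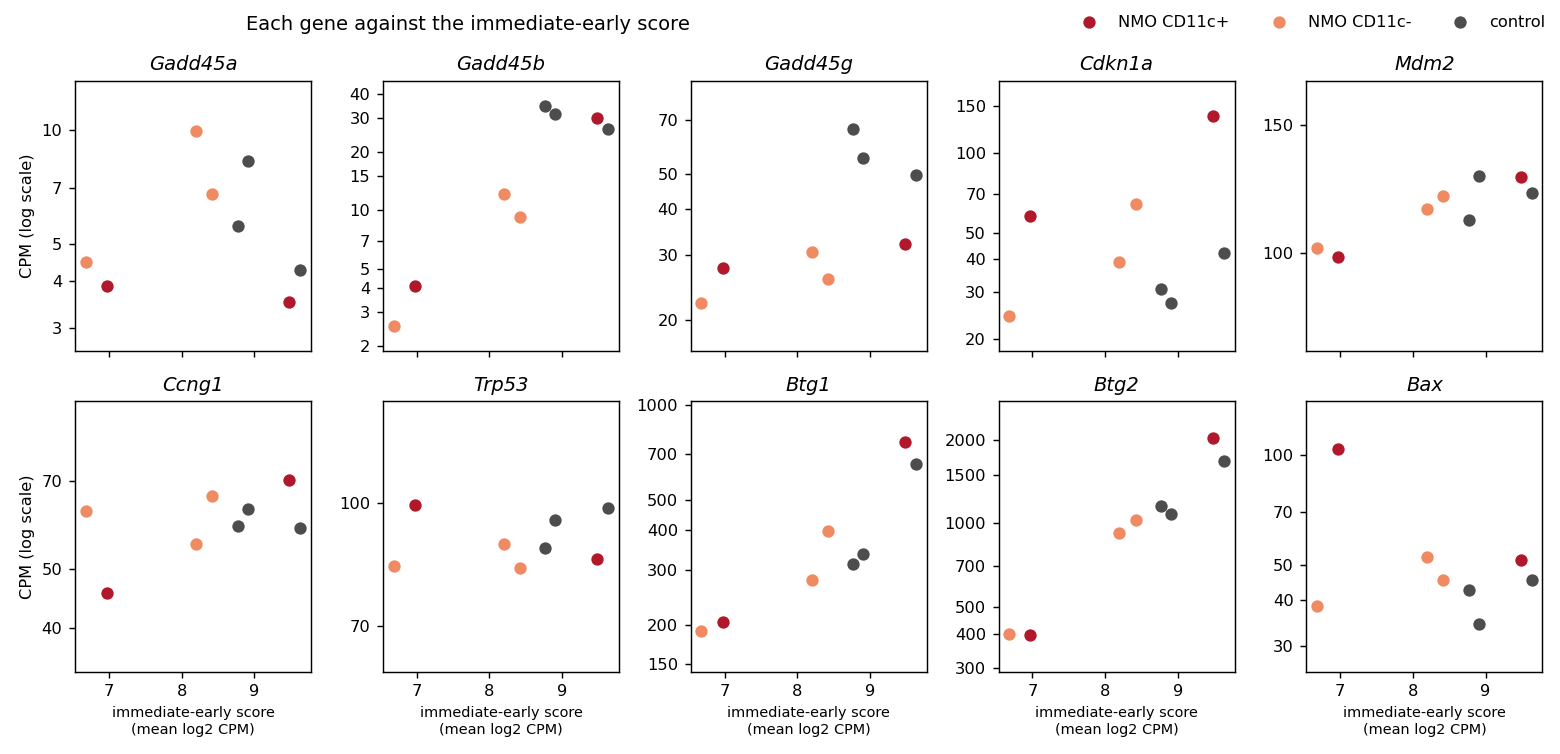
CPM of each gene (log axis, own range per panel) against the immediate-early score, the mean log2 CPM of 24 immediate-early and stress genes, in the 8 libraries coloured by group. Btg2 and Btg1 climb with the score over the 8 libraries (r = 0.98 and 0.91), Cdkn1a in each NMO CD11c+ library lies above the library nearest to it in score, and Gadd45g separates NMO from control libraries.

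The genes whose level was most like that of Gadd45g over the 8 libraries, at a mean of at least 5 CPM, were Camkk1 (Pearson r of log2 CPM 0.98), Myo7a (0.97), Dnaja3 (0.96), Cdkn2aipnl (0.96) and Utp6 (0.96), which were chosen for this likeness, so no p is given. Camkk1, a kinase that acts on calcium/calmodulin-dependent kinases, was at 18.8 to 21.7 CPM in NMO CD11c+, 16.5 to 19.8 in NMO CD11c- and 30.1 to 36 in control libraries. Myo7a, an unconventional myosin, was at 170 to 172, 161 to 167 and 210 to 225 CPM in the same order, a smaller difference than that of Gadd45g. No immediate-early gene and no other gene of the set was among the 5, which says little, as the 5 were taken from all tested genes above that level. Within the set, Gadd45b was the most like Gadd45g (r = 0.83).

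The other p53 targets were taken from a list of 31. Of 28 tested, edgeR called 2 higher and 0 lower in NMO CD11c+ cells relative to controls (2 and 1 by DESeq2, 4 and 3 at unadjusted p under 0.05), where 6.85% of all tested genes were called higher and 3.36% lower, with a median log2 fold change of 0.15 beside 0.01 over all tested genes. Of all tested genes 28.8% had an unadjusted p under 0.05, and DESeq2 called 1592. Psrc1, a p53 target that encodes a spindle-associated protein, was low, with 106 counts over the 8 libraries. It was at 4.9 and 5.64 CPM in NMO CD11c+ libraries, at 1.5, 2.41 and 2.06 in NMO CD11c- libraries and at 0.611, 0.428 and 0.131 in controls. The 3 groups did not overlap, and Psrc1 was higher in NMO CD11c+ cells relative to controls (log2 fold change 3.68, SE 0.46, adjusted p = 0.00115), a call kept without each library in turn. Between the NMO groups its difference of 1.4 did not pass (SE 0.39, adjusted p = 0.169). Pml, the organiser of nuclear bodies and also an interferon-induced gene, was at 66.0 and 58.0 CPM in NMO CD11c+, at 60.8, 65.2 and 59.7 in NMO CD11c- and at 45.1, 42.8 and 45.5 in control libraries (NMO CD11c+ against control 0.48, SE 0.11, adjusted p = 0.0204). The Pml call was lost without NMO CD11c+ replicate 1 (adjusted p = 0.0578) or control replicate 1 (0.0658), 2 (0.0847) or 3 (0.0682), and with only the groups compared (0.0732). After GC correction the Pml difference was 0.31 (adjusted p = 0.0438). Between the NMO groups 0 of 28 were called by edgeR (0 by DESeq2, 5 higher at unadjusted p under 0.05). There edgeR called 0.283% of all tested genes, and 15.4% had an unadjusted p under 0.05. Between NMO CD11c- and control, the contrast behind the choice, 2 of 28 were called higher, Psrc1 (2.28) and Pml (0.48), with the same controls as above and a background of 3.72%. There the Psrc1 call was lost without NMO CD11c- replicate 2 or 3 or any 1 control, and the Pml call was lost without any 1 NMO CD11c- or control library and with the immediate-early covariate.

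Of the regulators of p53, such as the Mdm2 relative Mdm4 and the kinase genes Atm and Atr, 14 of 17 were tested and 0 were called in any of the 3 comparisons by edgeR or DESeq2, where edgeR called 0.283% of all tested genes between the NMO groups, 10.2% for NMO CD11c+ against control and 3.72% for NMO CD11c- against control. At unadjusted p under 0.05 there was 1 higher and 1 lower for NMO CD11c+ against control, 0 between the NMO groups and 1 higher for NMO CD11c- against control. In the same order, 28.8%, 15.4% and 18.8% of all tested genes had an unadjusted p under 0.05, and DESeq2 called 1592, 268 and 696 genes. These backgrounds also apply to the lists that follow. Of 17 tested partners of GADD45 and members of the p38 and JNK chain, edgeR called 2 higher and 0 lower in NMO CD11c+ cells against controls (2 and 1 by DESeq2, 2 and 3 at unadjusted p under 0.05), against shares of 6.85% and 3.36% of all tested genes, which also apply to the lists that follow. They were Cdk1, the mitotic kinase that GADD45 proteins bind, at 7.97 and 6.17 CPM in NMO CD11c+, 7.20 to 12.8 in NMO CD11c- and 2.68 to 3.06 in control libraries (log2 fold change 1.31, SE 0.29, adjusted p = 0.022), and Map2k7, an activator of JNK (0.39, SE 0.10, adjusted p = 0.0389). The Cdk1 call was lost without NMO CD11c+ replicate 1 (0.0986) or control replicate 1 (0.0609), 2 (0.0789) or 3 (0.0781). The Map2k7 call was lost without NMO CD11c+ replicate 1 (0.107), any NMO CD11c- library (0.0511 to 0.0677) or any control library (0.109 to 0.124), and with library size alone (0.0625), no filter (0.097), only the groups compared (0.106) or the immediate-early covariate (0.0689). After GC correction the Map2k7 difference was 0.21 (adjusted p = 0.107). Map3k4, the kinase that GADD45 proteins activate, was not called.

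Of 10 tested genes of the BTG/TOB family and the CCR4-NOT complex, 1 passed as higher and 0 as lower in NMO CD11c+ cells against controls (1 and 1 by DESeq2, 1 and 2 at unadjusted p under 0.05). It was Pabpc1, the poly(A)-binding protein, at 507 and 529 CPM in NMO CD11c+, at 384, 384 and 416 in NMO CD11c- and at 341, 322 and 309 in control libraries (log2 fold change 0.68, SE 0.11, adjusted p = 0.00415), and the call was kept without each library in turn. Of 12 tested BCL2 family genes 1 was higher in NMO CD11c+ cells, Bcl2l2, a survival factor (0.58, SE 0.16, adjusted p = 0.043), and DESeq2 called 0. That call was lost without NMO CD11c+ replicate 1 (0.119), without NMO CD11c- replicate 1 (0.0724) or replicate 3 (0.0705), without any control library (0.0738 to 0.13), and with library size alone (0.0602), no filter (0.1), only the groups compared (0.0992), the immediate-early covariate (0.0777) or GC correction (0.0663). Of 6 tested genes of cyclin-dependent kinase inhibitors and cyclin G2, 0 were called there by edgeR (0 by DESeq2, 1 higher at unadjusted p under 0.05). Of the 24 immediate-early and stress genes 1 was lower in NMO CD11c+ cells, Hspa1b, an inducible heat shock protein 70 gene nearly identical to its neighbour Hspa1a, so that reads of the pair are uncertain (-3.20, SE 0.87, adjusted p = 0.0451). At unadjusted edgeR p under 0.05 there were 0 higher and 2 lower in that list, and DESeq2 called 0 higher and 1 lower. The Hspa1b call was lost without NMO CD11c- replicate 3 (0.0719) or any control library (0.0939 to 0.121), and with only the groups compared (0.0518). In fits with 1 NMO CD11c+ library the Hspa1b difference was -2.37 without replicate 1 and -5.54 without replicate 2. With the neutrophil covariate none of the calls against control named here, from Psrc1 to Hspa1b, passed. The median log2 fold changes against control were -0.11 for the p53 regulators, 0.03 for the GADD45 partners, -0.09 for the BTG/TOB and CCR4-NOT genes, 0.21 for the BCL2 family, 0.38 for the cyclin-dependent kinase inhibitors and -0.22 for the immediate-early and stress genes. Between NMO CD11c+ and NMO CD11c- cells edgeR called 0 genes in each of these lists. DESeq2 called 1 there, higher, among the BTG/TOB and CCR4-NOT genes. At unadjusted p under 0.05 there were 0 higher and 1 lower among the GADD45 partners, 2 and 1 among the BTG/TOB and CCR4-NOT genes, 1 and 1 among the immediate-early and stress genes, and 0 in the others, beside 15.4% of all tested genes.

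**Figure D4:**
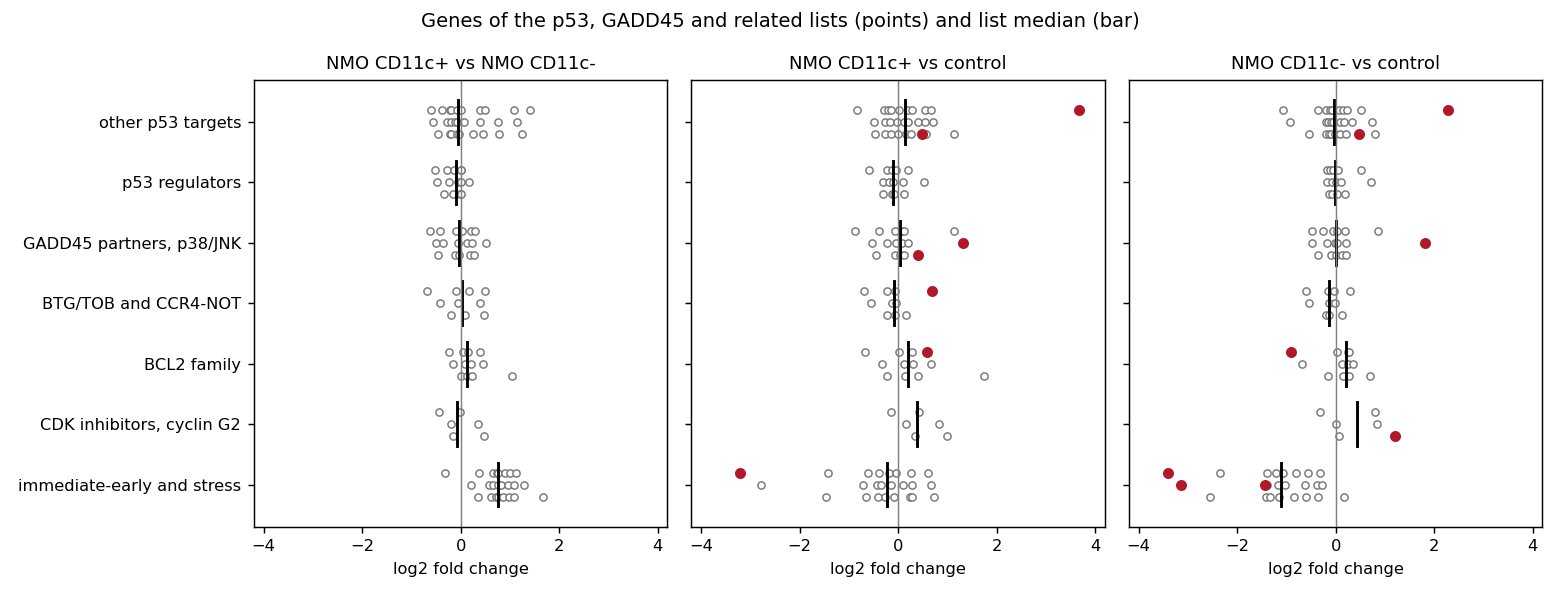
Log2 fold change (x axis) of every tested gene in 7 lists related to p53 and GADD45, in the 3 comparisons. Filled points have an adjusted p under 0.05, open points do not, and bars are list medians; the immediate-early and stress list has a median of 0.76 for NMO CD11c+ against NMO CD11c- and -1.11 for NMO CD11c- against control, and most genes of the other lists lie near 0.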

How the data were processed

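Total RNA of 8 libraries was measured with an Illumina TruSeq preparation, per the labels' protocols. The values are counts per gene as deposited by the authors, with 1 file per library; the aligner STAR, the counter HTSeq 0.5.4 and the build GRCm38 are listed in the submitters' processing notes. The sources used here do not give the strand setting or the annotation release. Symbols, positions, exon length and GC content came from GENCODE M21; 1 listed symbol, Prmt1, was not analysed here. Genes passing filterByExpr (minimum count 10) were fitted together in 1 edgeR 4.0.16 quasi-likelihood model of the 3 groups (R 4.3.3, TMM scaling), and p-values were adjusted by Benjamini-Hochberg over all 12002 tested genes, with a threshold of 0.05. All adjusted p are from this model unless permutation is named. SE and 95% intervals are those of the fitted log2 fold change. Scores are mean log2 CPM with a prior count of 2. Correlations with the score were tested two-sided over all 40320 orderings of the libraries. Levels per kilobase divide CPM by the length of all exons joined. The depth of the libraries is given with their totals.

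The members and gene lists were chosen with earlier results of these data known. Genes outside the 10 are named by a rule: for each list the called genes, at most 4, in order of adjusted p, the 5 most like Gadd45g, and Itgax; Mdm4, Atm, Atr and Map3k4 were named after their values were seen. Alternatives were RLE or library-size scaling, no or a stricter filter (minimum count 30), DESeq2 1.42.0, only the groups compared, each library left out, the immediate-early or neutrophil score as a covariate and a lowess correction for GC content, the last also with the immediate-early score, a combination chosen after seeing the data.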

Additional observations from a re-analysis of the deposited data

How the results depend on the processing

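No paired analysis was possible because the replicate numbers follow accession order and no label pairs the libraries. The number of the 10 genes called was 0 for NMO CD11c+ against NMO CD11c-, 3 for NMO CD11c+ against control and 1 for NMO CD11c- against control, and of all tested genes 34, 1225 and 446. In the same order of comparisons, RLE scaling, scaling by library size alone and a minimum count of 30 kept each of these counts within 1.5 times. With no filter on low counts 707, 2115 and 1157 genes were called, with 4 of the 10 genes in each comparison. DESeq2 called 268, 1592 and 696 genes, with 0, 3 and 1 of the 10. With only the groups compared in the fit the counts were 5, 627 and 1221, with 0, 2 and 2 of the 10. With the immediate-early covariate they were 182, 1147 and 471, with 1, 2 and 2 of the 10. After GC correction they were 55, 1501 and 848, with 0, 1 and 1 of the 10, and with GC correction and the immediate-early covariate together, chosen after seeing the data, 158, 1490 and 816, with 1, 3 and 2. With the neutrophil covariate they were 0, 5 and 21, with 0 of the 10 in each, in a fit where that score is 0.10 and 0.41 in NMO CD11c+ and 4.83 to 7.95 in all other libraries and so nearly repeats the group.

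Leaving out 1 library at a time gave 4 to 3016, 487 to 4077 and 141 to 1193 genes, and 0 to 2, 1 to 5 and 1 to 2 of the 10; the most genes were called without NMO CD11c+ replicate 2 in the first 2 comparisons and without replicate 1 in the third, where the lone sample left in that group is assumed to vary like the others. The log2 fold changes whose sign turned were small or had wide intervals. For NMO CD11c+ against NMO CD11c-, leaving out libraries gave -0.97 to 1.89 for Gadd45b, -0.18 to 0.18 for Mdm2, -0.42 to 0.20 for Ccng1, -0.50 to 1.40 for Btg1 and -0.99 to 1.38 for Btg2. For NMO CD11c+ against control it gave -0.28 to 0.084 for Mdm2, -0.40 to 0.22 for Ccng1, -0.14 to 0.082 for Trp53, -1.08 to 0.81 for Btg1 and -1.74 to 0.64 for Btg2. Between the NMO groups Mdm2 also turned to -0.049 with library size alone, -0.011 with no filter and -0.056 with the immediate-early covariate, Btg2 to -0.088 with that covariate and -0.10 with it and GC correction, and Ccng1 to 0.17 with GC correction and 0.16 with both. Against control Mdm2 turned to 0.021 with the immediate-early covariate, 0.019 with GC correction and 0.10 with both, Ccng1 to 0.040, 0.23 and 0.25, and Btg2 to 0.25 with the covariate and 0.25 with both. The neutrophil covariate turned Gadd45a to 2.94, Cdkn1a to -0.82 and Btg1 to -1.24 between the NMO groups, and Gadd45a to 2.23, Gadd45b to 1.54, Mdm2 to 0.19, Trp53 to 0.061 and Btg1 to -1.31 against control, at adjusted p of at least 0.889. The cause of these changes was not tested.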

Other observations

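Between NMO CD11c- and control microglia, the contrast from which Gadd45g was picked, a few related genes passed the threshold and are given as values, with no p because that contrast set the choice. They were 1 of 12 tested BCL2 family genes and 1 of 6 tested cyclin-dependent kinase inhibitors and cyclin G2. There were also 1 of 17 tested GADD45 partners and 3 of 24 immediate-early and stress genes, beside 3.72% of all tested genes. Bcl2, the founding survival gene of its family, was at 7.35 and 8.81 CPM in NMO CD11c+ libraries, at 6.13, 8.28 and 6.17 in NMO CD11c- libraries and at 11.4, 12.0 and 15.3 in controls (log2 fold change of NMO CD11c- against control -0.91, SE 0.20). Cdkn2c, which encodes the cyclin-dependent kinase inhibitor p18, was at 11.0 and 5.81 CPM in NMO CD11c+ libraries, at 7.48, 11.7 and 9.55 in NMO CD11c- libraries and at 4.04, 4.39 and 4.05 in controls (1.20, SE 0.27). Cdk1 was at 10.0, 12.8 and 7.20 CPM in NMO CD11c- libraries and at 3.06, 2.68 and 2.75 in controls (1.82, SE 0.25). The Cdk1 difference was called with each library left out, that of Bcl2 was not called without NMO CD11c- replicate 1 or 3 or any 1 control, and that of Cdkn2c was not called without NMO CD11c- replicate 2 or 3 or any 1 control. Jund, the AP-1 gene, was at 116, 257 and 241 CPM in NMO CD11c- libraries and at 585, 476 and 606 in controls (-1.44, SE 0.33), and its call was lost without any 1 NMO CD11c- or control library. Hspa1a and Hspa1b, whose reads are uncertain, averaged 27.2 and 44.6 CPM in NMO CD11c- libraries and 240 and 473 CPM in controls, and both calls were lost without NMO CD11c- replicate 1 or 3 or any 1 control. The log2 fold changes were -3.14 for Hspa1a and -3.41 for Hspa1b, and both were -4.34 without NMO CD11c- replicate 2. Hspa1a, Hspa1b and Jund are themselves part of the immediate-early score, so using it as a covariate takes up part of their own difference. Their values with it are therefore no independent check. With the immediate-early covariate the Hspa1a value was -1.88 and not called, and the Hspa1b value was -2.15 and called. Bcl2 (-0.82) and Cdkn2c (1.05) were not called with that covariate, while Cdk1 (1.70) and Jund (-0.83) were. With the neutrophil covariate none of these genes was called (Bcl2 -1.47, Cdkn2c 1.01, Cdk1 1.31, Jund -1.80, Hspa1a -4.88 and Hspa1b -5.03). The part of neutrophil RNA in these values was not tested.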
